A study of Mus musculus with 12 samples.

Results

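The potassium channel genes of the prefrontal cortex (PFC) were taken as every protein-coding gene of the deposited count table whose symbol starts with Kcn, which gave 94 of 41388 genes (21474 of these protein-coding). They carry 21 subfamily prefixes, from Kcna to Kcnv. RNA-sequencing was done on hand-dissected medial PFC of male Swiss Webster mice aged 10 weeks, in 12 libraries. Conventionally raised mice (CON, n = 4 libraries) and mice raised without microbes (germ-free, GF, n = 4) were compared with mice born germ-free and colonized from postnatal day 21 (exGF, n = 4). The labels and methods name no altered gene in any group. GF mice lived in isolators, while CON mice, and exGF mice after colonization, lived in the ordinary animal unit, so microbes and housing cannot be told apart between GF and the other groups. GF and CON mice were offspring of separate breeding pairs, and exGF mice were taken from the isolators. Breeding stock and microbes therefore cannot be told apart where GF or exGF is compared with CON. RNA from 2 to 3 animals was pooled for each library, and errors here therefore describe pools rather than single mice. The comparisons ask whether the transcripts that set neuronal excitability differ without microbes, and whether later colonization is accompanied by a difference from GF. In bulk tissue, fewer cells of a type and less RNA per cell cannot be told apart.

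Potassium channels let potassium leave the cell and so pull the membrane voltage down. Voltage-gated channels (Kcna to Kcnd, Kcnh and Kcnq) open on depolarization and shape the action potential, with silent subunits (Kcnf, Kcng, Kcns and Kcnv) that form no channel alone but alter the partners they join. Inward rectifiers (Kcnj) hold the resting voltage, answer G proteins or metabolism, and in astrocytes clear potassium released by active neurons, while the leak channels of the Kcnk genes have a pair of pore loops per subunit. Channels opened by calcium or sodium inside the cell (Kcnma, Kcnn and Kcnt) form a further class. Kcnu, known from sperm, is counted with them in every class value below, which does not mean that these ions open it. Auxiliary proteins that adjust gating or traffic (Kcnab, Kcne, Kcnip, Kcnmb and Kcnrg) complete the family.

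The pore genes share a selectivity filter, a short loop in which a glycine, a tyrosine or phenylalanine, and a second glycine line the path of the ion. A search of the coding sequence on GRCm38 for these 3 residues after a threonine or serine and after a valine, isoleucine, threonine or leucine found the pattern in 77 of 77 pore genes, in 0 of 17 auxiliary genes and in 0.505% of the other 21772 protein-coding genes. Leucine was added to the search after a first search had missed the Kcnc and Kcnd genes, so the complete count describes the pattern and tests nothing. The pattern occurred in 2 places in 11 of 14 Kcnk genes, and 16 genes, including the 8 of Kcnh, had phenylalanine alone in the middle. The stretches below are those of the genes described first in the comparisons, with capitals on the codons of glycine, tyrosine or phenylalanine, and glycine. They are shown because they mark what makes these transcripts channel transcripts and which form, tyrosine or phenylalanine, each carries. The 2 forms do not follow the classes.
Kcnj3, chr2:55437627-55437641, plus strand: accatcGGCTATGGC
Kcnj16, chr11:111024904-111024918, plus strand: accattGGATACGGT
Kcnj10, chr1:172369302-172369316, plus strand: accatcGGCTATGGC
Kcna1, chr6:126642228-126642242, minus strand: actgtgGGATACGGT
Kcng1, chr2:168262641-168262655, minus strand: accgtaGGCTACGGA
Kcnh2, chr5:24325555-24325569, minus strand: agcgtgGGCTTTGGC
Kcnh4, chr11:100750293-100750307, minus strand: agtgtaGGCTTCGGC
Kcnt1, chr2:25894367-25894381, plus strand: actgtgGGCTTCGGT
The inward rectifiers Kcnj3 and Kcnj10 have the same 15 bases, whereas Kcnj16, the partner that Kcnj10 takes up, differs in codon choice alone within the capitals. Kcnh2, Kcnh4 and Kcnt1 carry the phenylalanine form.

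The CON libraries held 22757169 to 29134760 counts on genes, the GF libraries 13280926 to 23465074 and the exGF libraries 22702599 to 28615407, and the potassium channel genes took 0.466% to 0.541% of them. In all comparisons the same number of these genes, 78, passed edgeR's filter on low counts, and 16 passed it in none. Of the 16, 8 had at most 3 counts in every library, among them Kcnj1, Kcnk16 and Kcnv2 with 0 counts throughout, and no untested gene exceeded 17 counts. A gene's level across libraries is given as CPM, its counts scaled to the library size. Levels between genes are given as RPKM, the CPM per kilobase of all annotated exons of the gene together. A mean of at least 1 RPKM was reached by 66 genes and of at least 10 RPKM by 26, and the 10 highest held 49.5% of the 906 RPKM summed over the family.

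The auxiliary gene Kcnab2, a cytoplasmic beta subunit of the Kcna channels, had the highest level in the family with 76.1 ± 5.09 RPKM (SD, n = 12). Kcnj10, the main inward rectifier of astrocytes and also present in oligodendrocytes, followed with 59.4 ± 6.90 RPKM, and these ranges met, since the lowest Kcnab2 library had 66.8 RPKM and the highest Kcnj10 library 68.9 RPKM. Kcnj4, an inward rectifier of neurons, and Kcnj9, a G-protein-gated one, came next with 54.6 ± 3.77 and 46.6 ± 3.51 RPKM (both named after their values were seen). Below them stood Kcnip3, a calcium sensor that binds Kcnd channels, at 38.6 ± 3.99 RPKM, the silent subunit Kcnf1 at 38.3 ± 2.27 RPKM, and Kcna1, a channel of axons that opens at low voltage, at 37.3 ± 4.62 RPKM. The levels of Kcnip3, Kcnf1 and Kcna1 did not differ beyond their spread. Kcnip2, a further partner of Kcnd channels, stood at 33.7 ± 3.69 RPKM, the leak channel Kcnk1 at 32.9 ± 2.51 RPKM and Kcnh3, a channel active near the resting voltage, at 31.02 ± 3.18 RPKM.

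The inward rectifiers had the highest summed level of a single subfamily (Kcnj, 209 ± 9.66 RPKM, SD, n = 12), and the 6 voltage-gated subfamilies together had 300.2 ± 18.5 RPKM. Auxiliary genes summed to 224 ± 8.88 RPKM, silent subunits to 84.6 ± 3.74 RPKM, leak channels to 57.5 ± 3.36 RPKM, and channels opened by calcium or sodium to 31.4 ± 2.11 RPKM. The span within a subfamily varied. In Kcnq the M-current gene Kcnq5 stood at 17.1 ± 1.97 RPKM and Kcnq1, the channel of heart and ear, 0.197 ± 0.0801 RPKM. Kcnma1, the large-conductance calcium-activated channel, was at 4.68 ± 0.808 RPKM, below its beta subunit Kcnmb4, the neuronal form, at 15.6 ± 1.38 RPKM. This order rests on the exon lengths, 16976 bases for Kcnma1 and 3324 for Kcnmb4. In CPM, Kcnma1 was the higher in every library. Of the Kcnmb4 exon bases, 31.5% also lie in antisense genes, and counts on several genes were left out. Kcnu1, known from sperm, was at 1.15 ± 0.166 RPKM, and the assembly regulator Kcnrg at 0.276 ± 0.0591 RPKM.

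**Figure D1:**
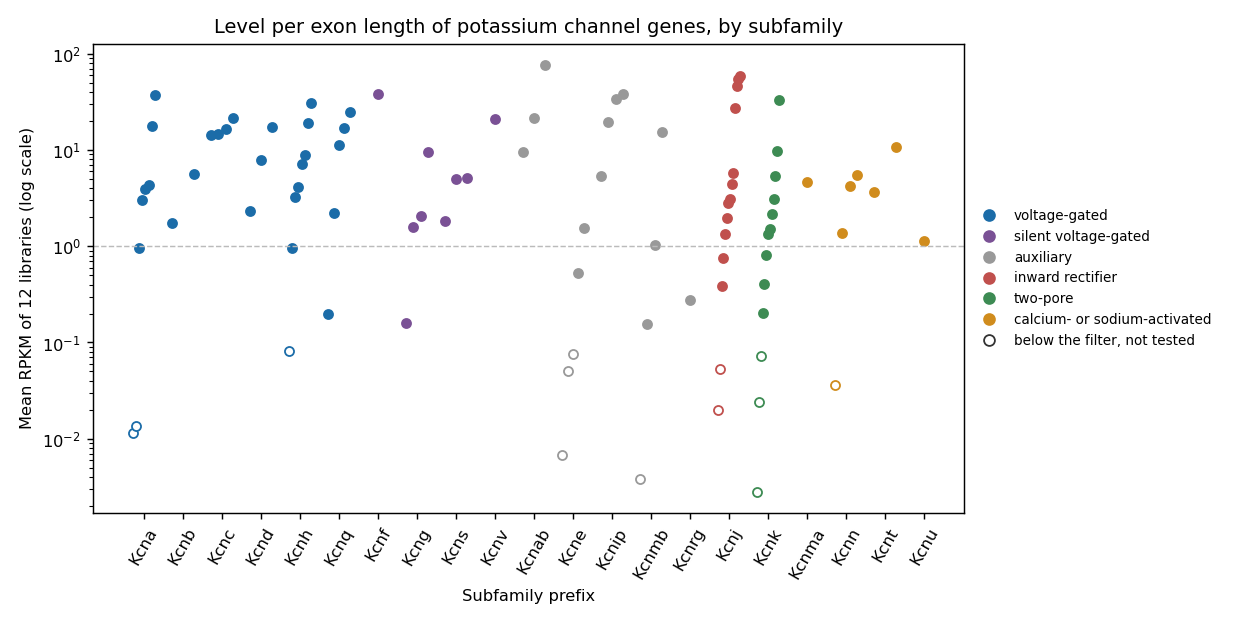
Mean level of each potassium channel gene over 12 libraries in RPKM (log axis) by subfamily prefix, with colour for the class and open points for genes below the filter. The 3 genes with 0 counts are not drawn, the dashed line marks 1 RPKM, and the highest point is Kcnab2 at 76.1 RPKM.

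Within groups, the tested potassium channel genes had a median SD of 0.218 on the log2 CPM scale, against 0.199 for the 16032 genes kept over 12 libraries. CON replicate 2 and the exGF library GFR4 were each the lowest of the 12 libraries for 13 of 78 channel genes, and GF replicate 2 for 15. Relative to the mean over libraries, the median channel gene stood at -0.13 (log2) in CON replicate 2 and -0.07 in GFR4. In GFR3 it stood at 0.08, so the channel medians alone do not set GFR4 apart. CON replicate 2 and GFR4 also had the highest summed level of 8 striatal neuron markers, at 471 and 451 CPM, where the other 10 libraries had 239 to 303 CPM. For several genes below, values without these libraries are also given. None of the 8 striatal markers was at 0 counts in any library, and the part of these libraries' make-up in the results was not tested.

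Relative to CON, no potassium channel gene passed an adjusted p of 0.1 in GF by edgeR's quasi-likelihood F-test (Benjamini-Hochberg adjusted) over all 15542 genes tested, where 0.251% of all genes did. DESeq2 called 2 of 78, Kcnj3 and Kcnj16, and 1.32% of all genes. At an unadjusted p under 0.05, edgeR found 7 channel genes higher in GF (8.97% of 78, against 4.75% of all genes) and 3 lower (3.85%, against 3.94%), and DESeq2 10 of 78 in all, against 8.71% of all genes. The groups did not overlap for 3 channel genes (3.85%, against 5.08% of all genes), with Kcnj3 and Kcnh2 higher in GF and Kcnip2 lower. The log2 fold changes had a median of -0.02 (all genes 0.01), with 37 genes above and 41 below 0. For 42 of the 78 the 95% interval lay within 0.5 of 0, and the median half-width of 0.28 shows the size that these libraries could resolve.

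Kcnj3 encodes a subunit of the inward rectifiers that G proteins open, through which GABAB and other receptors quiet neurons (ENSMUSG00000026824, chromosome 2 from 55435970 to 55598145 on GRCm38). Its level was 129, 112, 129 and 130 CPM in CON replicates 1 to 4, and 148, 165, 164 and 162 CPM in the GF replicates. It was 193, 147, 133 and 112 CPM in GFR1 to GFR4. Each GF library lay above each CON library, and the exGF libraries spanned both groups. The log2 fold change in GF was 0.35 (SE 0.08), a 1.28-fold higher level, with an adjusted p of 0.143 by edgeR's quasi-likelihood F-test (Benjamini-Hochberg adjusted). DESeq2 gave an adjusted p of 0.00683 and edgeR without the filter on low counts 0.0892. Without CON replicate 2, the lowest CON library, the log2 fold change was 0.31 (edgeR, adjusted p = 0.230). A single edgeR fit of the 12 libraries gave an adjusted p of 0.401, the highest of 16 alternatives. In exGF relative to CON it was 0.22 (SE 0.13) with an adjusted p of 0.952 by the same edgeR quasi-likelihood test, and 0.34 (SE 0.12) without GFR4, the lowest exGF library.

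Of the Kcnj3 exon bases, 31.1% also lie in the lincRNA gene Gm26794 on the opposite strand, and counting did not use strand. Reads lying wholly there could not be assigned to either gene, and counts on several genes were left out. The Kcnj3 values therefore come from reads that reach its other exon bases. Reads assigned to Gm26794 alone stood at 6.81 to 8.95 CPM in CON, 5.65 to 8.06 CPM in GF and 6.81 to 9.37 CPM in exGF, and these ranges overlapped. The other genes of the same channel group, named after their values were seen, were Kcnj9, at 181 to 214 CPM in CON and 169 to 217 CPM in GF (log2 fold change -0.07, SE 0.09), and Kcnj6, at 16.1 to 31.1 CPM in CON and 17.2 to 23.0 CPM in GF (-0.23, SE 0.17). Both overlapped between the groups. Kcnj5 was below the filter, with at most 9 counts in a library.

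Kcnj16 encodes a rectifier subunit that joins Kcnj10 in a channel sensitive to pH, known from kidney and from glia of the brainstem (ENSMUSG00000051497, chromosome 11 from 110968033 to 111027968). It had the lowest log2 fold change of the family both in GF and in exGF. CON replicates 1 to 4 held 12.5, 5.03, 13.5 and 28.0 CPM. The GF replicates held 3.05, 6.36, 3.71 and 4.52 CPM, and GFR1 to GFR4 held 4.31, 4.32, 4.17 and 3.78 CPM. The CON libraries differed most among themselves, and GF overlapped them through GF replicate 2 and CON replicate 2, whereas exGF lay below each CON library. The log2 fold change was -1.72 (SE 0.39) in GF and -1.84 (SE 0.37) in exGF, with adjusted p of 0.144 and 0.226 by edgeR's quasi-likelihood F-test (Benjamini-Hochberg adjusted).

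The call of this gene depended on the fit. Over 16 alternatives in GF, its adjusted p ran from 1.25e-04 to 0.390, the highest by edgeR without GF replicate 3. Over 15 alternatives in exGF, it ran from 4.79e-04 to 0.548, the highest by edgeR without GFR3. In GF, DESeq2 gave an adjusted p of 0.0834, edgeR without the filter on low counts 1.25e-04 and a single edgeR fit of the 12 libraries 0.0861. In exGF the adjusted p of these fits (DESeq2, edgeR without the filter and the single edgeR fit) was 0.0536, 4.79e-04 and 0.0914. Without CON replicate 2 the log2 fold changes were -2.00 and -2.12 and the gene was called in both comparisons (edgeR, adjusted p of 0.0137 in GF and 0.00511 in exGF). Without CON replicate 4, its highest library, they were -1.21 and -1.33 and the gene was not called (edgeR, adjusted p of 0.188 and 0.177). Under the other alternatives tried, Kcnj16 was also not called.

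The summed level of 8 choroid plexus and meninges markers was also lower, at 76.5 to 102 CPM in CON, 54.9 to 62.3 CPM in GF and 56.5 to 75.6 CPM in exGF. Of the 7 tested, 2 were called lower in GF, Slc6a13 and Col1a2, by edgeR's quasi-likelihood test, and 0 were called in exGF, where 4 had an unadjusted p under 0.05. Of all genes, 0.251% were called in GF, and 2.87% were lower in exGF at that unadjusted threshold. Within CON the order was not the same, since CON replicate 4, with the most Kcnj16, had 77.9 CPM of the markers and CON replicate 1 had 102 CPM. The part of these cells in the Kcnj16 values was not tested.

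Its partner Kcnj10 stood at 291, 239, 300.4 and 341 CPM in CON, at 348, 303, 373 and 341 CPM in GF, and at 343, 361, 321 and 295 CPM in exGF. The groups overlapped, and the log2 fold change of 0.22 in GF (SE 0.10) had an unadjusted p of 0.0518 and was 0.13 without CON replicate 2. All 10 oligodendrocyte markers had a higher level in GF at an unadjusted p under 0.05 (4.75% of all genes). Of these, edgeR called 7 (0.251% of all genes), Ermn, Mal, Mobp, Cldn11, Mbp and Mog included. Their summed level was 2202 to 2703 CPM in CON, 3430 to 5740 CPM in GF and 2179 to 3672 CPM in exGF. The 8 astrocyte markers summed to 4571 to 4979 CPM in CON, 4599 to 5088 CPM in GF and 4320 to 4881 CPM in exGF. GFR2 and GFR4 lay below each CON library, while GFR1 and GFR3 lay within the CON range. For GF, edgeR called 0 of these markers, and 1 was lower at an unadjusted p under 0.05 (3.94% of all genes). For exGF it also called 0, and 3 of 8 were lower than in CON at that unadjusted threshold (2.87% of all genes). The part of either cell type in the Kcnj10 values was not tested.

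Of 27 voltage-gated genes tested by edgeR, 4 were higher in GF at an unadjusted p under 0.05 and 0 lower, where 4.75% and 3.94% of all genes were. Kcna1 had 148, 142, 175 and 174 CPM in CON and 190, 162, 207 and 203 CPM in GF, so that GF replicate 2 alone fell within the CON range. Its log2 fold change in GF was 0.25 (SE 0.10, unadjusted p = 0.0240). Kcnq5, a subunit of the M current that holds back repeated firing, had 106 to 127 CPM in CON and 126 to 154 CPM in GF, and its log2 fold change was 0.22 (SE 0.09). Kcnh7, of the ERG group, had 98.6 to 144 CPM in CON and 124 to 174 CPM in GF, with a log2 fold change of 0.29 (SE 0.13, named after its values were seen). In each of these the groups overlapped, and without CON replicate 2 the log2 fold changes of Kcna1, Kcnq5 and Kcnh7 were 0.20, 0.17 and 0.21, each with an unadjusted p above 0.05 (edgeR).

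The silent subunits went both ways. Kcng1, which joins and alters Kcnb channels, was lower, with 45.0, 60.1, 55.3 and 44.4 CPM in CON and 29.97, 39.7, 32.7 and 50.5 CPM in GF. GF replicate 4 lay among the CON libraries, and the log2 fold change was -0.42 (SE 0.15, unadjusted p = 0.0150), or -0.33 without CON replicate 2. Kcnv1, a further modifier of Kcnb channels, had 92.6, 80.3, 91.5 and 81.9 CPM in CON and 90.7, 148, 94.7 and 103 CPM in GF, and GF replicate 2 held the highest value. Its log2 fold change of 0.33 (SE 0.13) was 0.15 without that library. Kcng4 had the highest log2 fold change of the family in GF, 0.50 (SE 0.23, unadjusted p = 0.0457), from 6.03 to 7.20 CPM in CON and 6.18 to 14.7 CPM in GF, and it was 0.22 without GF replicate 1. Kcnf1 and Kcns1, the highest of their subfamilies, had log2 fold changes of -0.07 (SE 0.08) and 0.01 (SE 0.13).

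Of the auxiliary genes, Kcnip2 had 121, 141, 121 and 125 CPM in CON and 119, 98.3, 109 and 94.3 CPM in GF, with each GF library below each CON library. The log2 fold change was -0.27 (SE 0.09), with an adjusted p of 0.393 by edgeR's quasi-likelihood F-test (Benjamini-Hochberg adjusted), and -0.22 without CON replicate 2. Kcnip3, of the same group of calcium sensors, had 120 to 147 CPM in CON and 127 to 161 CPM in GF, a log2 fold change of 0.18 (SE 0.10, unadjusted p = 0.0767). Kcnd2, the A-current channel that these proteins bind, had a log2 fold change of 0.15 (SE 0.12). Kcnab2 differed by 0.07 (SE 0.08), with a 95% interval of -0.11 to 0.25. None of the 10 tested leak channel genes had an unadjusted p under 0.05, and Kcnk5, an acid-sensitive leak channel with at most 41 counts in a library, had the lowest log2 fold change among them at -0.68 (SE 0.38).

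**Figure D2:**
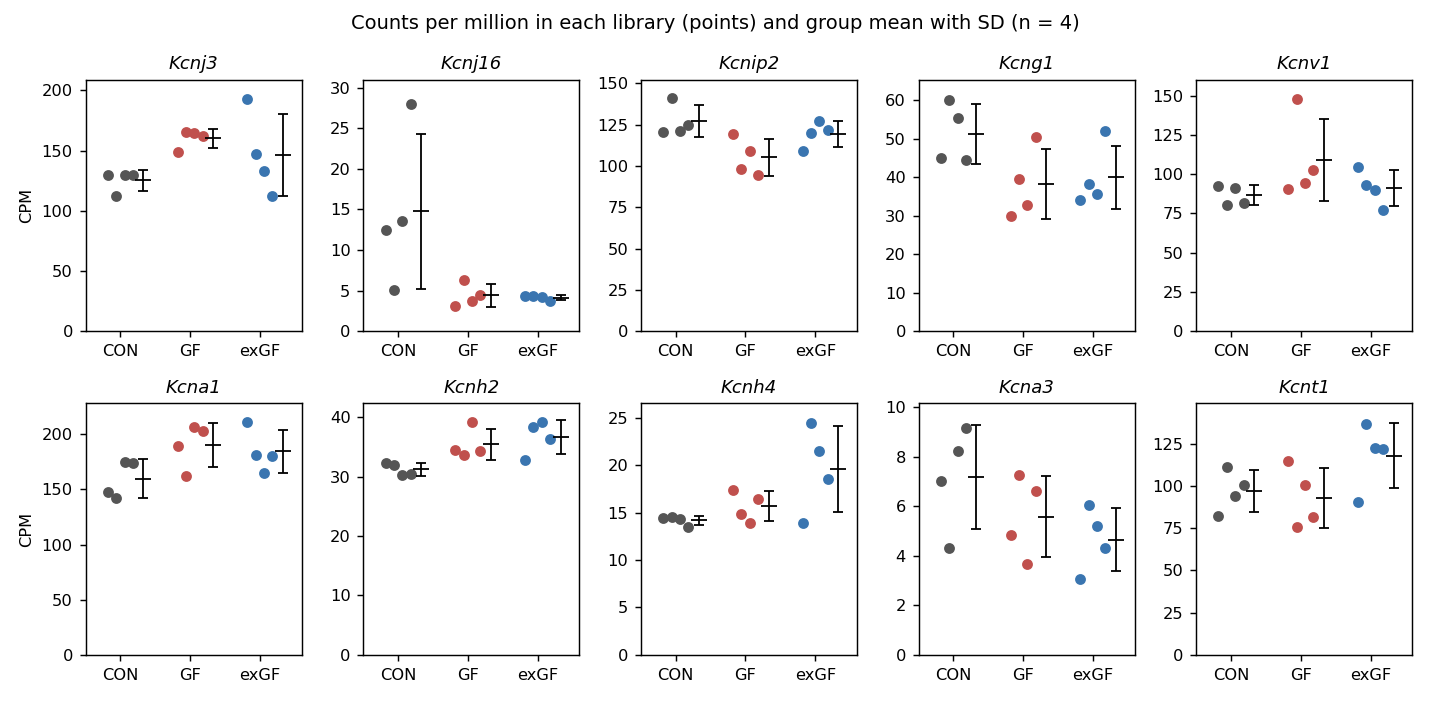
Level in CPM of 10 potassium channel genes in each library, as points by group (4 CON, 4 GF and 4 exGF libraries), with the group mean and SD as black bars beside them and axes from 0. Kcnj3 separates GF from CON, Kcnj16 is spread from 5.03 to 28.0 CPM within CON alone, and most other panels overlap.

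Relative to CON, exGF showed a similar picture in number. No potassium channel gene passed an adjusted p of 0.1 by edgeR's quasi-likelihood F-test (Benjamini-Hochberg adjusted), where 0.0696% of all 15813 genes did, and DESeq2 called 1 of 78, Kcnj16, and 0.379% of all genes. At an unadjusted p under 0.05, 3 were higher in exGF (3.85%, against 2.46% of all genes) and 3 lower (3.85%, against 2.87%), and DESeq2 found 7 of 78 in all, against 5.59% of all genes. The groups did not overlap for 2 (2.56%, against 3.31% of all genes), Kcnh2 higher and Kcnj16 lower. The median log2 fold change was 0.01 (all genes -0.01), and 54 of 78 intervals lay within 0.5 of 0. Since GF and exGF were set against the same CON libraries, an unusual CON library enters both comparisons, and likeness between them is not a separate result.

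In exGF relative to CON, 2 genes of the Kcnh subfamily stood among the 3 that were higher. Kcnh4, a channel of the ELK group, had 14.4, 14.5, 14.3 and 13.5 CPM in CON and 13.9, 24.4, 21.5 and 18.5 CPM in exGF. The CON libraries lay close together and GFR1 fell among them. The log2 fold change was 0.46 (SE 0.15, unadjusted p = 0.0100), and in GF, with 13.9 to 17.4 CPM, it was 0.14 (SE 0.11). Kcnh2, the ERG channel also known from the heart, had 32.3, 32.0, 30.3 and 30.4 CPM in CON, 34.5, 33.7, 39.2 and 34.3 CPM in GF, and 32.9, 38.3, 39.1 and 36.3 CPM in exGF. Each GF and each exGF library lay above each CON library, by log2 0.18 (SE 0.09, unadjusted p = 0.0581) and 0.22 (SE 0.09, unadjusted p = 0.0266). Over the subfamily, picked after its values were seen, 6 of 7 tested Kcnh genes had a log2 fold change above 0 in either comparison. Of all 78 channel genes, 37 did in GF and 41 in exGF. The Kcnh medians were 0.16 in GF and 0.22 in exGF. Without CON replicate 2, Kcnh1 (named after its values were seen) turned to -0.04 in GF and -0.01 in exGF, and Kcnh3 to 0.03 in exGF. Kcnh5, of the EAG group, reached 0.38 in exGF (SE 0.27), but 0.13 without GFR3 and 0.61 without GFR4.

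The lower genes in exGF were Kcnj16, described above, Kcna3 and Kcng1. Kcna3, a channel of lymphocytes and microglia as well as neurons, had 7.02, 4.31, 8.22 and 9.14 CPM in CON, 4.83, 7.25, 3.65 and 6.61 CPM in GF and 3.07, 6.05, 5.19 and 4.33 CPM in exGF. CON replicate 2 fell within the exGF range. The log2 fold change was -0.63 in exGF (SE 0.24, unadjusted p = 0.0208) and -0.35 in GF (SE 0.24). Without CON replicate 2 these were -0.80 (SE 0.21) and -0.53 (SE 0.21), and without GFR4 the value in exGF was -0.58 (SE 0.27). The 6 microglia markers summed to 256 to 310 CPM in CON, 228 to 255 CPM in GF and 227 to 243 CPM in exGF. Of these, 4 of 6 were lower in exGF at an unadjusted p under 0.05 (2.87% of all genes), with 0 called by edgeR. Their part in the Kcna3 values was not tested. Kcng1 had 34.2, 38.3, 35.6 and 52.0 CPM in exGF, with GFR4 among the CON libraries, and its log2 fold change was -0.36 (SE 0.15, unadjusted p = 0.0276). Without GFR4 it was -0.50 (SE 0.12), and without CON replicate 2 it was -0.27 (SE 0.15).

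Between exGF and GF no potassium channel gene passed an adjusted p of 0.1 by edgeR's quasi-likelihood F-test (Benjamini-Hochberg adjusted), and 0% of all 15569 genes did. DESeq2 called 0 channel genes and 0.122% of all genes. At an unadjusted p under 0.05, edgeR found 2 higher in exGF (2.56%, against 3.3% of all genes) and 0 lower (against 3.35%), and DESeq2 found 1 of 78, against 6.78% of all genes. The groups overlapped for each channel gene, while 3.32% of all genes did not overlap. The median log2 fold change was 0.02, with a range of -0.38 to 0.36, and 53 of 78 intervals lay within 0.5 of 0.

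Kcnt1, a channel opened by sodium that follows bursts of firing, had 115, 75.7, 100.4 and 82.0 CPM in GF and 90.8, 137, 122 and 122 CPM in exGF, with 82.1 to 112 CPM in CON. GFR1 lay among the GF libraries, and the log2 fold change from GF to exGF was 0.34 (SE 0.14, unadjusted p = 0.0312). Kcnd1, a further A-current channel, had 10.4 to 13.2 CPM in GF and 11.9 to 14.9 CPM in exGF, a log2 fold change of 0.25 (SE 0.12, unadjusted p = 0.0497). Kcnh4 differed by 0.33 (SE 0.15) and Kcnip2 by 0.18 (SE 0.09), both higher in exGF. Kcnip3 (-0.17, SE 0.09), Kcnmb4 (-0.16, SE 0.09) and Kcnv1 (-0.26, SE 0.14) had lower log2 levels in exGF. At the ends of the range stood Kcng4 (-0.38, SE 0.23) and 2 genes of low level, Kcnj14 (0.36, SE 0.31) and Kcnq1 (-0.31, SE 0.41). Kcnj14, an inward rectifier, has 35.6% of its sequence, as 31-base words, in common with other transcripts, and its counts are uncertain. Kcnj16 had the same level in both groups within the spread (-0.11, 95% interval -0.55 to 0.34), and for Kcnj3 the interval was -0.42 to 0.16.

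**Figure D3:**
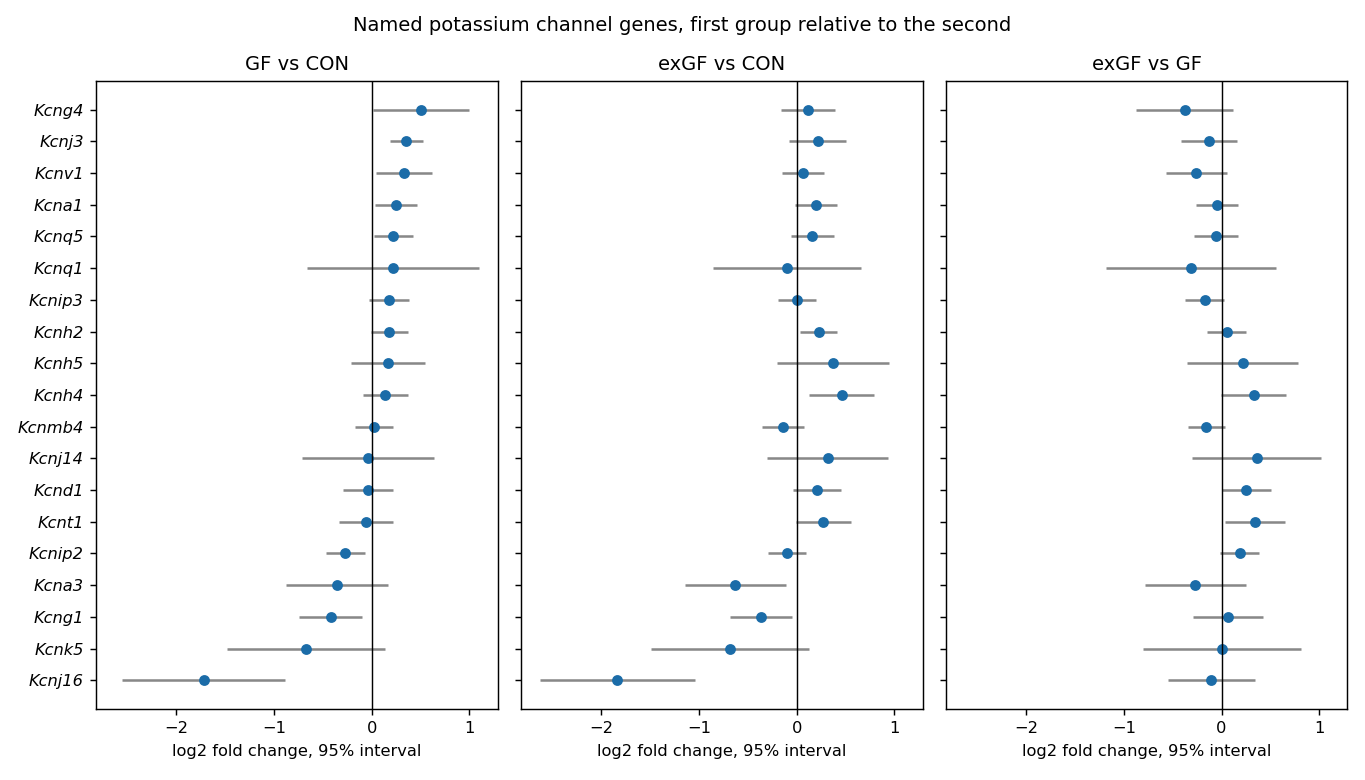
Fitted log2 fold changes (points) with 95% intervals (lines) for 19 potassium channel genes named by comparison, in GF relative to CON, exGF relative to CON and exGF relative to GF. Kcnj16 lies at -1.72 and -1.84 relative to CON and near 0 between exGF and GF, and most other intervals reach or nearly reach 0.

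By class, the fitted values had medians close to 0. In GF relative to CON the median log2 fold change was 0.06 for 27 tested voltage-gated genes (16 above 0, 11 below), 0.03 for 13 auxiliary genes, 0.01 for 9 silent subunits, -0.08 for 12 inward rectifiers, -0.04 for 10 leak channels and -0.06 for 7 channels opened by calcium or sodium. In exGF relative to CON it was 0.09 for voltage-gated genes, -0.02 for auxiliary genes, 0.02 for silent subunits and -0.03 for leak channels. The inward rectifiers spread most, from -1.72 to 0.35 in GF and from -1.84 to 0.32 in exGF, because of Kcnj16 at the lower end. Leak channels and channels opened by calcium or sodium had 0 genes at an unadjusted p under 0.05 by edgeR in GF or exGF relative to CON. Summed levels of the classes overlapped between CON and GF where ranges are compared over libraries. The voltage-gated sum was 266 to 316 RPKM in CON, 289.9 to 308 RPKM in GF and 285 to 328 RPKM in exGF, and the inward rectifier sum was 189.9 to 215, 199.7 to 218 and 196 to 218 RPKM.

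**Figure D4:**
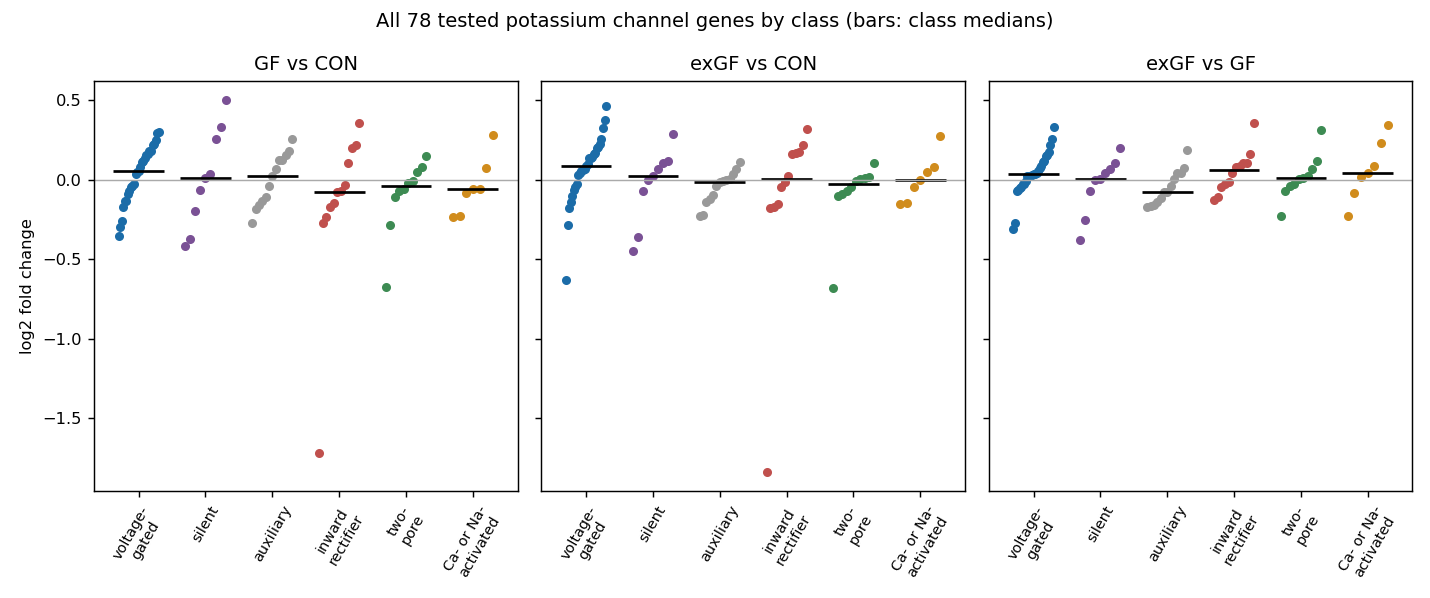
Fitted log2 fold changes of the 78 tested potassium channel genes by class in the 3 comparisons, with 1 point per gene and a black bar at the class median. Medians lie between -0.08 and 0.09 in every class, and the lowest points, -1.72 and -1.84, are Kcnj16.

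Genes whose products work in pairs were set against each other within each library, as ratios of CPM that are compared across libraries only. Kcnj16 over Kcnj10 was 0.0210 to 0.0819 in CON, 0.00876 to 0.0210 in GF and 0.0120 to 0.0130 in exGF, so the exGF libraries were nearly alike and the lowest CON and the highest GF library nearly met. Kcnj3 over Kcnj9 was 0.605 to 0.638 in CON, a narrow range, 0.683 to 0.974 in GF and 0.583 to 0.909 in exGF. Each GF library lay above the CON range. Kcnd2 over Kcnd3, the A-current pair, was 0.840 to 1.09 in CON, 1.12 to 1.67 in GF and 1.09 to 1.58 in exGF, although neither gene had an unadjusted p under 0.05 on its own. Kcna1 over Kcna2 (2.45 to 5.28 in CON, 3.04 to 5.22 in GF) and Kcnma1 over Kcnmb4 (1.14 to 2.10 and 1.30 to 1.69) overlapped between the groups. The 5 pairs were chosen with results of these data known, and their ratios are given without a test.

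**Figure D5:**
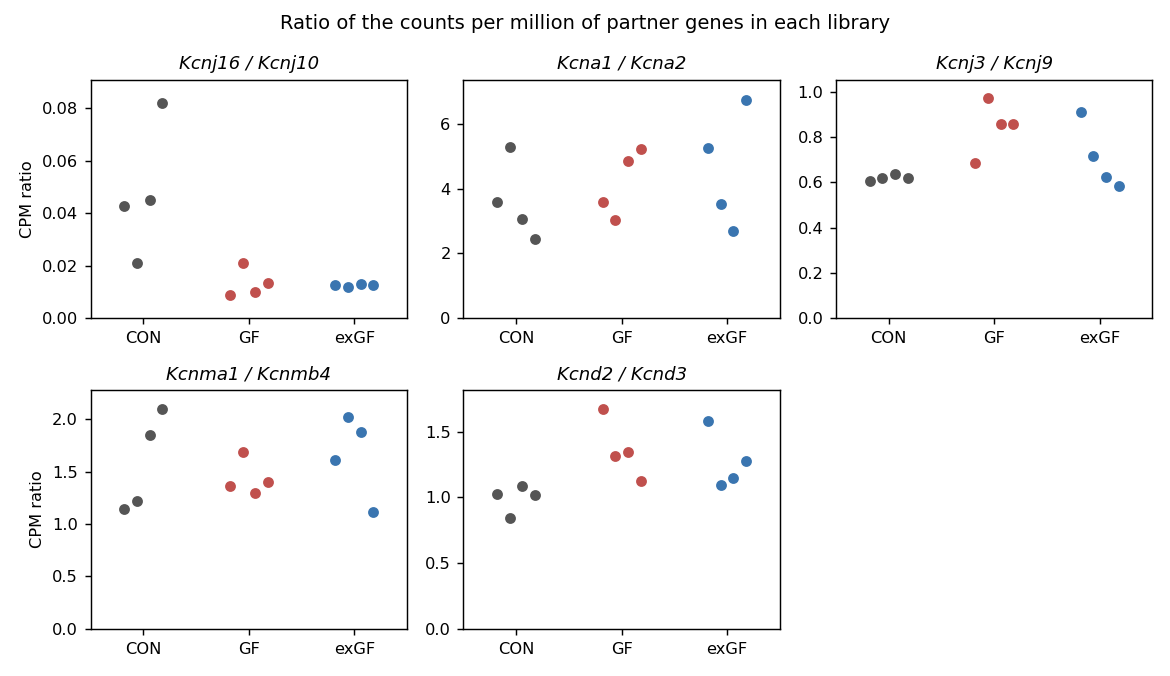
Ratio of the CPM of 5 pairs of partner genes in each of the 12 libraries, by group, with axes from 0. The Kcnj3 to Kcnj9 ratio is tight in CON (0.605 to 0.638) and higher in GF, and the Kcnj16 to Kcnj10 ratio is tight in exGF (0.0120 to 0.0130) and wide in CON.

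Genes that work beside potassium channels were described by the same counts. None of the genes in the 5 lists was called by edgeR in any comparison, where 0.251% of all genes were in GF and 0.0696% in exGF. At an unadjusted p under 0.05 by edgeR, 4.75% of all genes were higher and 3.94% lower in GF. In exGF these shares were 2.46% and 2.87%. The sodium-potassium ATPase and chloride cotransporters had 2 of 8 genes higher in GF at an unadjusted p under 0.05, Atp1b1 (log2 fold change 0.19, SE 0.07) and Slc12a2 (0.23, SE 0.09), and 1 of 8 in exGF. Their summed level was 7000 to 7158 CPM in CON, 7264 to 7499 CPM in GF and 7567 to 7691 CPM in exGF. Of the 11 GABAB receptor and G-protein partners of the Kcnj3 channels, 1 was higher in GF, Rgs7bp (0.19, SE 0.08), and 0 in exGF at an unadjusted p under 0.05, with a list median of 0.05 and 0.06. Of the 8 axonal clustering proteins 1 was higher in exGF, Cntn2 (0.22, SE 0.09), with medians of 0.06 and 0.07. The 4 hyperpolarization-activated Hcn channels had 0 genes at that threshold by edgeR, with medians of 0.02 and -0.06. Of 11 other channel partners 9 were tested, with 1 higher in exGF, Abcc8, the sulfonylurea receptor (0.31, SE 0.11), and medians of 0.09 and 0.03. Between exGF and GF these lists held 0 genes at an unadjusted p under 0.05 by edgeR, where 3.3% of all genes were higher and 3.35% lower.

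The marker lists not given above describe the tissue. The 6 excitatory neuron markers summed to 5637 to 6318 CPM in CON, 5854 to 6583 CPM in GF and 5711 to 6656 CPM in exGF, and the 8 mural and endothelial markers to 398 to 456, 416 to 436 and 436 to 483 CPM. The 7 interneuron markers summed to 578 to 610 CPM in CON, 626 to 717 CPM in GF and 595 to 706 CPM in exGF. By edgeR 0 were called, and 2 of 7 were higher in GF at an unadjusted p under 0.05 (4.75% of all genes). The 10 activity-induced genes summed to 656 to 1006 CPM in CON, 1127 to 1389 CPM in GF and 805 to 1391 CPM in exGF. Of these, 8 were higher in GF at an unadjusted p under 0.05 and 1, Dusp6, was called by edgeR. Of all genes, 4.75% were higher in GF at that unadjusted threshold and 0.251% were called. No excitatory neuron marker was at 0 counts in any library. The part of the interneurons or of the activity-induced genes in the channel values was not tested.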

How the data were processed

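The values are counts deposited by the authors, with no normalization. Per the labels and the study's methods, polyA RNA pooled from 2 to 3 animals was made into stranded libraries, and read pairs were trimmed (Trimmomatic 0.32), aligned to GRCm38.p3 (STAR) and counted on genes of Ensembl by HTSeq 0.6.0 without use of strand. The processing notes name STAR 2.3.1u. CON and GF columns name their replicates, while the 4 GFR columns were taken as exGF and not matched to single samples.

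Counts outside genes (4.57% to 7.31%), on several genes (1.10% to 1.32%) and aligned to several places (13.0% to 19.2%) were left out. Names, exon lengths and transcript sequences came from a GRCm38 annotation (GENCODE), in which 40340 of the 41388 genes had a name, and it differs from the release used for counting. No protein sequence was used.

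With R 4.3.3, each pair of groups was normalized by TMM, filtered by filterByExpr and tested by edgeR 4.0.16 (quasi-likelihood test, Benjamini-Hochberg adjustment over all genes tested, called at an adjusted p under 0.1, as in the study's methods). The test was checked on simulated data with 200 changed genes. Those changes were larger than most described here, so the check does not cover differences of the smaller sizes. CPM and RPKM use TMM library sizes. Groups were said not to overlap where each library of one lay above each library of the other. Genes with at most 3 counts in every library were treated as not detected. The precision was set by the spread of 4 pools per group, which the fit moderates over all genes. The p-values set a difference against that spread, and not against the spread between single mice.

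Other settings tried were upper-quartile or RLE scaling, no filter, at least 10 counts in every library, DESeq2 1.42.0, limma-voom (limma 3.58.1), 1 fit of 12 libraries, a replicate block, a threshold of 0.05 and leaving out each library in turn. Genes named were those called, the 8 with the smallest p and the 3 highest and 3 lowest fold changes in each comparison, and the highest RPKM of each subfamily. Of the partner lists the 2 smallest p per comparison were candidates for naming, and list genes called at an adjusted p under 0.1 were named. Some genes that met these rules are not reported here. Members and lists were chosen with earlier results of these data known. The authors' enrichment, qRT-PCR and microscopy were not analysed here.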

Additional observations from a re-analysis of the deposited data

Results flagged for a closer look

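Dixon's test for a single distant library was applied to the CPM of the 35 named potassium channel genes in each group of 4 libraries, 105 groups in all. Chance flags about 1 in 20 groups, and 3 were flagged. Kcnj3 had 112 CPM in CON replicate 2, below the other CON libraries at 129 to 130 CPM. CON replicate 2 was also the CON library with the lowest Kcnj16 value and the highest sum of striatal neuron markers. Kcnh2 had 39.2 CPM in GF replicate 3, above the other GF libraries at 33.7 to 34.5 CPM, and Kcnf1 had 175 CPM in the exGF library GFR2, below the others at 182 to 183 CPM.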

How the results depend on the processing

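The number of potassium channel genes called in GF relative to CON, 0 by edgeR's quasi-likelihood test, was 2 without the filter on low counts, 2 by DESeq2 and 1 in a single fit of 12 libraries, and 0 to 1 with a library left out. Calls over all genes went from 39 of 15542 to 221 of 24405 without the filter, 205 of 15542 by DESeq2 and 39 of 16032 in the single fit. In exGF relative to CON, 0 became 1, 1 and 1 under the same changes and 0 to 1 with a library left out. There the calls over all genes went from 11 of 15813 to 48 of 25054, 60 of 15813 and 15 of 16032. In both, the 1 call with a library left out came without CON replicate 2 and was Kcnj16. Between exGF and GF 0 were called under each alternative. At an unadjusted p under 0.05, the number in GF went from 10 of 78 to 16 of 90 without the filter (7.74% of all genes), and from 6 (without GF replicate 3) to 12 with a library left out. In exGF it went from 6 of 78 to 10 of 91 without the filter (5.50% of all genes), and from 3 (without GFR2) to 11 (without GFR4) with a library left out. Between exGF and GF it went from 2 to 1 with RLE size factors and to 1 by DESeq2, and ran from 0 (without GFR2 or GFR3) to 7 (without GFR1), with 5 without GF replicate 1. The median log2 fold changes stayed within 1 SD of the spread between libraries. Of 487 values of named genes under alternatives, 476 kept direction and side of the threshold, 10 newly passed it (all Kcnj3 or Kcnj16) and 1 turned, Kcnq1 between exGF and GF, to 0.12 without GF replicate 4 (its range with a library left out was -0.55 to 0.12). The cause of these changes was not tested.

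Replicate numbers did not pair CON and GF: deviations of same-numbered libraries from their group means correlated between -0.08 and 0.05 across genes. With the replicate block, 0 channel genes were called in GF and 11 had an unadjusted p under 0.05, with a median log2 fold change of -0.02. No paired analysis was possible for exGF because its columns carry no numbers matched to samples. With 4 pools per group the median 95% half-width of 0.28 to 0.31 (log2) limits the size of a difference that could be seen, most for genes with few counts.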
